A study of Mus musculus with 10 samples.

Results

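The 9 genes described here are Trp53, which codes for the tumour suppressor p53, with its feedback regulators Mdm2, Mdm4 and Ppm1d and the targets Trp53inp1, Zmat3, Dcxr, Gtse1 and Psrc1. They were taken by gene name from a deposited count table of 40481 Ensembl genes, 1 row each, and all 9 held enough counts to be among the 18401 genes tested. Bulk RNA sequencing measured them in dorsal root ganglia of C57BL/6 mice, the paired swellings of spinal nerve roots that house sensory neurons and their glia. A group of 5 libraries came from mice given oxaliplatin at 10 mg/kg, in a study whose design text gives 8 weeks of treatment, and 5 came from mice given vehicle. Oxaliplatin is a platinum drug that forms adducts and crosslinks on DNA and damages sensory nerves. Age, sex and dosing schedule are not in the labels, which also do not state that each library came from a separate animal. A p-value here therefore reflects variation among libraries, which may be partly technical.

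p53 is a transcription factor that is held at a low level in unstressed cells. Mdm2 tags it for breakdown, and Mdm4, a relative of Mdm2, binds and silences it. DNA damage sets off kinases that phosphorylate p53 and Mdm2, so that p53 protein builds up, largely without a change in its messenger RNA, and switches on genes for growth arrest, repair and cell death. Mdm2 and Ppm1d are themselves such genes, which closes the feedback loops that switch p53 off again. Neurons do not divide, whereas glia, endothelial cells and immune cells of the ganglion can.

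The 9 genes fell into a group with clear differences and a group with small ones. Gtse1 was 3.44-fold higher after oxaliplatin, Psrc1 3.16-fold, Dcxr 2.11-fold and Trp53inp1 1.80-fold, and for each of these 4 genes every oxaliplatin library lay above every vehicle library. Trp53 itself and Mdm2 differed by 1.25% and 2.16% between the groups. Mdm4, Zmat3 and Ppm1d lay between, at 10.4%, 23.1% and 34.3% above vehicle. Of the 9 genes 4 were past an adjusted p of 0.05 on the higher side and 0 on the lower side, where 1.27% of all tested genes were called higher (edgeR quasi-likelihood test, Benjamini-Hochberg adjustment over all genes) and 0.772% lower. At an unadjusted p under 0.05 the numbers were 6 and 0, where 8.51% of all genes were higher and 7.80% lower. They were 5 and 0 in DESeq2, against 2.80% and 2.21% of all genes, and 4 and 0 in limma voom, against 2.39% and 1.98%. The groups did not overlap for the same 4, against 2.25% of all genes on that side. The 9 genes were chosen by name and role, with the fold changes of this same comparison in view, so these counts and the adjusted p-values below describe the libraries and are no independent test.

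**Figure D1:**
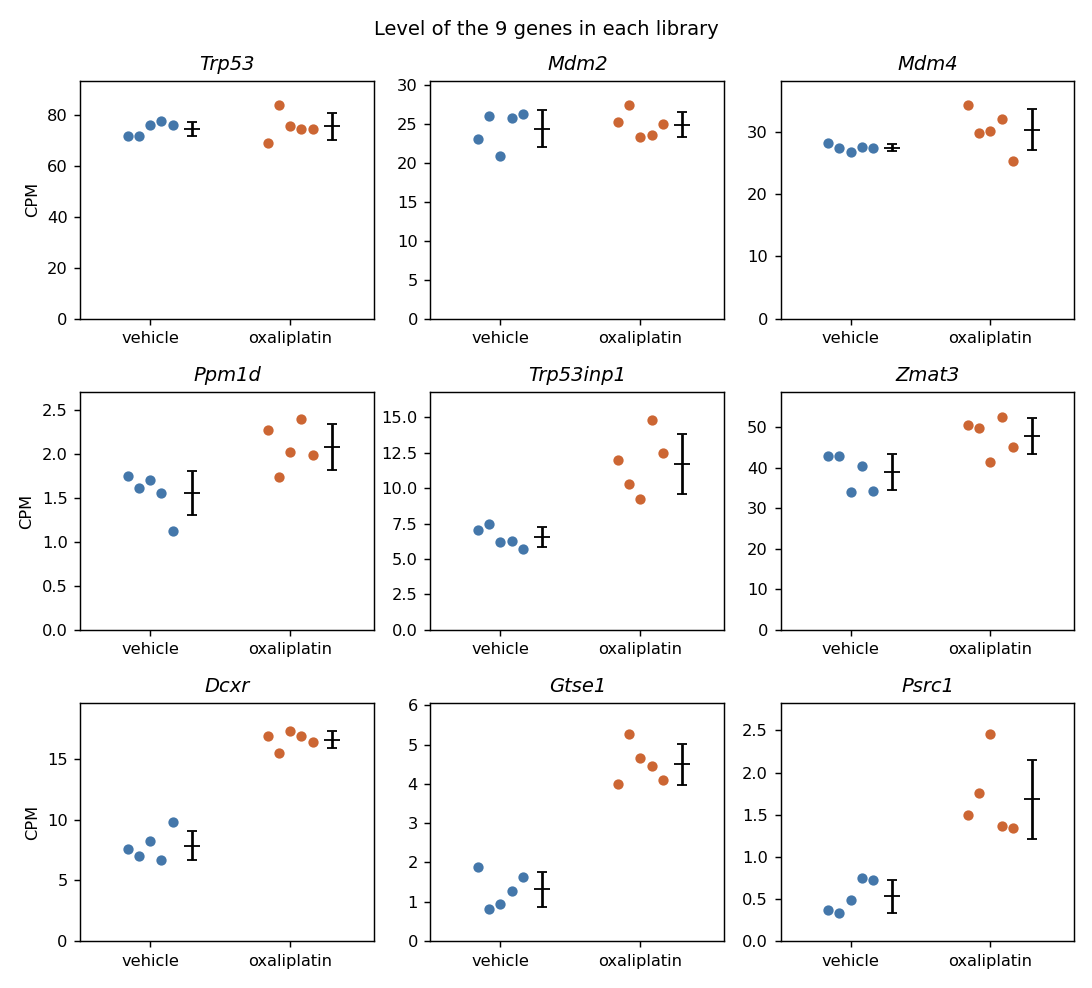
Each panel plots 1 gene, with CPM (counts scaled to library size) on a linear axis that starts at 0; points are libraries in the order replicate 1 to 5, and the bar beside them is the mean ± SD (n = 5). Trp53inp1, Dcxr, Gtse1 and Psrc1 show no overlap between the groups, and the points of Trp53 and Mdm2 overlap between them.

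To show what lies in front of these genes, the RefSeq promoter windows (GRCm38.p6, 250 bases before to 50 after a start site) were searched for the p53 half-site, a consensus of 10 bases that p53 binds in pairs. RefSeq has 10 such windows for 7 of the 9 genes, all except Trp53inp1 and Zmat3. An exact half-site was present in 4 of the 10 windows, 1 each for Trp53, Mdm2, Ppm1d and Gtse1, and 8.36% of all 32841 windows of this length hold one. A pair of half-sites with up to 13 bases between them, the core C and G of each kept, and at most 1 mismatch in 20 bases was found for Gtse1 alone, against 0.627% of all windows. Motif matches were sought on both strands, since the half-site reads alike on each. The next 4 windows are examples, picked with the expression differences known: Gtse1 and Mdm2 hold a half-site, Dcxr and Psrc1 do not. Mdm2 is the only 1 of these 4 without a clear difference between the groups. Not printed are the windows of Trp53 and Ppm1d, which hold a half-site and whose genes were not called. The Mdm4 windows and the other windows of Gtse1 and Psrc1, which hold none, are not printed either. Capitals mark the exact half-site and, for Gtse1, the whole paired site, which spans positions -1 to 19 counted from the start site as 1.
Gtse1, chr15:85859696-85859995, plus strand: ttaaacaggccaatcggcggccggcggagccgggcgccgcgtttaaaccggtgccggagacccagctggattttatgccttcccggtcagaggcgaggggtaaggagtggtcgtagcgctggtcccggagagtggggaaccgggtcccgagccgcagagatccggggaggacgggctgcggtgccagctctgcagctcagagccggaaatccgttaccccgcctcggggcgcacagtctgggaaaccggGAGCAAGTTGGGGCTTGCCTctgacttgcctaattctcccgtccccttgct
Mdm2, chr10:117710709-117711008, minus strand: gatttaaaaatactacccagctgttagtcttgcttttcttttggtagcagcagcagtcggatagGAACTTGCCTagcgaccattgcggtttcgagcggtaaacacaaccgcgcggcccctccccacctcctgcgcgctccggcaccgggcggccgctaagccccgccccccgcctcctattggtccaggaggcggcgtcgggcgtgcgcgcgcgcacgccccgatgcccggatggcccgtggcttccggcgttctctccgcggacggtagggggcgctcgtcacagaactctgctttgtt
Dcxr, chr11:120727235-120727534, minus strand: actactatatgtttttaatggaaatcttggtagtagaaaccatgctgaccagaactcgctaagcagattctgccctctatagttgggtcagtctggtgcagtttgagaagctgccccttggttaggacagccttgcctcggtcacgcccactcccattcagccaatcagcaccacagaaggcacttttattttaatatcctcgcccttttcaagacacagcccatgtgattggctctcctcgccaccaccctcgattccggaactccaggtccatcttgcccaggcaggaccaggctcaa
Psrc1, chr3:108383554-108383853, plus strand: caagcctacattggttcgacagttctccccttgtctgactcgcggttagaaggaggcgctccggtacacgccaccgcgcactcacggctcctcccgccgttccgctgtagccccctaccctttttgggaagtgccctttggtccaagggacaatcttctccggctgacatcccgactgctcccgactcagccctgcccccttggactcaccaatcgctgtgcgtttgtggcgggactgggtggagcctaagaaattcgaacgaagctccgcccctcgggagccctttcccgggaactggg
The half-site of the Mdm2 window lies at -186 to -177 from the start site. A match is a description of the letters and no evidence of binding. The p53 sites known from Mdm2 lie inside its first intron, outside this window. No source used here names the build behind the deposited counts, so these coordinates apply to the RefSeq windows only.

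Trp53 (ENSMUSG00000059552) stood at 69.1, 84.1, 75.7, 74.3 and 74.4 CPM, counts scaled to library size, in oxaliplatin replicates 1 to 5. In vehicle replicates 1 to 5 it stood at 71.6, 71.6, 76.1, 77.7 and 75.9 CPM. The vehicle libraries all lay inside the range of the oxaliplatin libraries, of which replicate 1 was the lowest and replicate 2 the highest. This gave a log2 fold change of 0.02 ± 0.06 (SE), with a 95% interval of -0.12 to 0.15 (edgeR adjusted p = 0.931). As a ratio, that interval runs from 0.923-fold to 1.11-fold. Levels of p53 protein and its phosphorylation were not measured.

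Mdm2 (ENSMUSG00000020184), the ubiquitin ligase that removes p53 and that p53 switches on, had 25.3, 27.4, 23.3, 23.6 and 25.0 CPM after oxaliplatin. After vehicle it had 23.0, 26.0, 20.9, 25.7 and 26.3 CPM. The groups overlapped almost fully, and only oxaliplatin replicate 2 lay above the highest vehicle library. The log2 fold change was 0.03 ± 0.09, with a 95% interval of 0.901-fold to 1.16-fold (edgeR adjusted p = 0.908). Its counts, 1167 to 1602 per library, gave a counting error of 2.61% in the oxaliplatin group, below the spread between libraries of 6.54%. Neither Trp53 nor Mdm2 has a fixed sign: without oxaliplatin replicate 2 both had a log2 fold change below 0.

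Mdm4 (ENSMUSG00000054387), which masks the activating region of p53, had 34.2, 29.8, 30.1, 32.0 and 25.3 CPM after oxaliplatin. The vehicle libraries were tightly grouped at 28.2, 27.4, 26.7, 27.5 and 27.3 CPM. The spread differed between the groups, with a coefficient of variation of 10.9% after oxaliplatin and 1.97% after vehicle, the latter below the 2.57% that counting alone gives. Above the vehicle range lay 4 oxaliplatin libraries, and replicate 5 lay below it. Its log2 fold change was 0.14 ± 0.08 (95% interval -0.03 to 0.32, edgeR adjusted p = 0.412). The pseudogene Gm29257, which lies within Mdm4 on the opposite strand and shares 0 of its exon bases, was at 0.25 ± 0.21 (edgeR adjusted p = 0.614).

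Ppm1d (ENSMUSG00000020525) codes for the phosphatase Wip1, which p53 induces and which takes phosphates off p53 and its kinases. It was rare: a treated library held 101 to 148 counts and a vehicle library 60 to 97. The oxaliplatin libraries had 2.27, 1.73, 2.02, 2.39 and 1.99 CPM and the vehicle libraries 1.75, 1.61, 1.70, 1.55 and 1.12 CPM. Only oxaliplatin replicate 2 fell within the vehicle range, just under vehicle replicate 1. The log2 fold change of 0.43 ± 0.19 had a 95% interval of 0.03 to 0.82 and missed the threshold (edgeR adjusted p = 0.271, unadjusted p = 0.0370). Counting error was 9.05% and 10.8% in the groups, close to the spread between libraries of 12.5% and 16.3%, so for this gene the depth sets much of the precision.

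Among the targets outside the loops, Trp53inp1 (ENSMUSG00000028211) codes for a stress protein of autophagy and cell death that also promotes the phosphorylation of p53. It had 12.0, 10.3, 9.22, 14.8 and 12.5 CPM after oxaliplatin and 7.02, 7.49, 6.21, 6.24 and 5.70 CPM after vehicle. The lowest oxaliplatin library, replicate 3, still lay above the highest vehicle library, replicate 2. Its log2 fold change was 0.85 ± 0.13 (95% interval 0.57 to 1.12, edgeR adjusted p = 0.00557). The oxaliplatin libraries spread more widely for this gene, by 18.2% against 10.9% after vehicle, with replicate 4 the highest.

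Zmat3 (ENSMUSG00000027663), a zinc finger protein that binds RNA and is a target of p53, was the most abundant target in CPM. It had 50.5, 49.8, 41.5, 52.4 and 45.2 CPM after oxaliplatin and 42.8, 43.0, 34.0, 40.4 and 34.2 CPM after vehicle. All oxaliplatin libraries except replicate 3 lay above the vehicle range. The log2 fold change was 0.30 ± 0.09 (95% interval 0.11 to 0.49), and the adjusted p was 0.0962 in the edgeR test. Zmat3 was the only 1 of the 9 genes whose call moved between settings. Its adjusted p was 0.0455 in DESeq2, 0.0177 in edgeR with the replicate number as a block, and 0.296 without oxaliplatin replicate 1 and vehicle replicate 5.

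Dcxr (ENSMUSG00000039450), a reductase of sugars and dicarbonyl compounds, had the third smallest p of all 18401 genes. It had 16.9, 15.5, 17.3, 16.9 and 16.4 CPM after oxaliplatin and 7.62, 7.04, 8.23, 6.67 and 9.80 CPM after vehicle. Its lowest oxaliplatin library was well above vehicle replicate 5, the highest of its group. The mean was 16.6 ± 0.693 CPM (SD, n = 5) against 7.87 ± 1.23 CPM (n = 5), for a log2 fold change of 1.08 ± 0.11 (95% interval 0.85 to 1.30, edgeR adjusted p = 0.000130). The oxaliplatin libraries differed among themselves by 4.18%, near the counting error of 3.20%, and the vehicle libraries by 15.7%. Its neighbours in the RefSeq gene order, Rac3 and Cbr2, were at log2 fold changes of 0.17 ± 0.15 and 0.54 ± 0.19 (edgeR adjusted p = 0.644 and 0.164).

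Gtse1 and Psrc1 code for microtubule-binding proteins of dividing cells that p53 induces. Gtse1 also carries p53 out of the nucleus and lowers its activity, which makes it a regulator as well as a target. Gtse1 (ENSMUSG00000022385) had 3.99, 5.28, 4.67, 4.46 and 4.09 CPM after oxaliplatin and 1.88, 0.823, 0.948, 1.26 and 1.62 CPM after vehicle. Its lowest oxaliplatin library had more than the highest vehicle library, and the vehicle libraries spread by 34.1% against 11.5% after oxaliplatin. The log2 fold change was 1.78 ± 0.21 (95% interval 1.33 to 2.23, edgeR adjusted p = 0.000696). Its neighbours Ttc38 and Trmu were at 0.31 ± 0.10 and 0.29 ± 0.11 (edgeR adjusted p = 0.130 and 0.194). Of 14 tested neighbours of the 9 genes 0 passed in edgeR, where 1.27% of all genes were higher and 0.772% lower. At an unadjusted p under 0.05 there were 3 (Cbr2, Trmu and Ttc38), all on the higher side. Over all genes 8.51% were higher and 7.80% lower there. In DESeq2 0 passed, against 2.80% and 2.21% of all genes. In limma voom 2 passed, Cbr2 and Ttc38, against 2.39% and 1.98%. Gtse1 is the gene whose printed window holds the paired half-sites.

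Psrc1 (ENSMUSG00000068744), which helps to move chromosomes on the spindle, was the least abundant of the 9, with 80 to 144 counts in a treated library and 18 to 44 in a vehicle library. It had 1.49, 1.76, 2.46, 1.37 and 1.34 CPM after oxaliplatin and 0.362, 0.337, 0.483, 0.748 and 0.727 CPM after vehicle. Replicate 3 was the highest oxaliplatin library, and vehicle replicates 4 and 5 the highest of theirs, still below all 5 treated ones. Between the groups the log2 fold change was 1.66 ± 0.29 (95% interval 1.05 to 2.27, edgeR adjusted p = 0.0100). Counting error reached 18.4% in the vehicle group, where the libraries spread by 37.0%. Trp53inp1, Dcxr, Gtse1 and Psrc1 each passed the threshold in all 18 alternative fits, with highest adjusted p-values of 0.0240, 0.00105, 0.00523 and 0.0318.

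**Figure D2:**
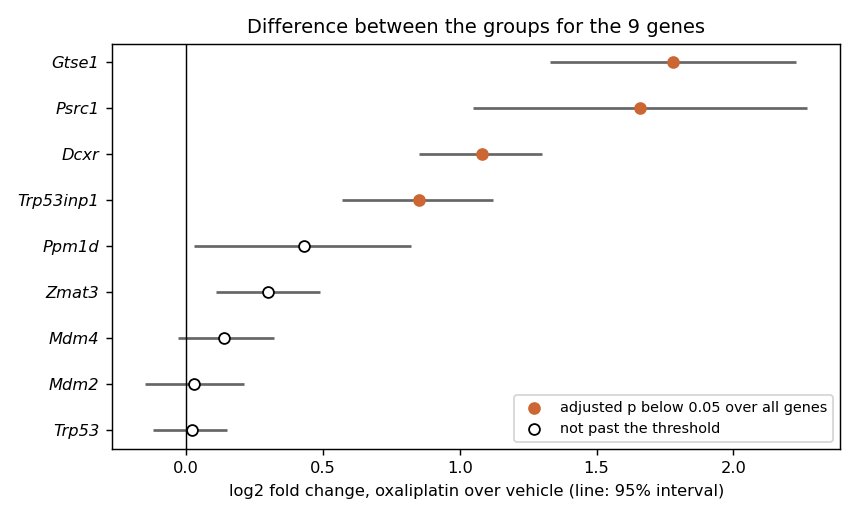
Log2 fold change of oxaliplatin over vehicle for each of the 9 genes (x axis), with its 95% interval from the edgeR fit as a line; filled points passed an adjusted p of 0.05 over all genes. The intervals of Trp53, Mdm2 and Mdm4 span 0, and those of Gtse1 and Psrc1 start at 1.33 and 1.05.

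Gtse1 and Psrc1 are made in dividing cells, so a list of 34 cell division genes was set beside them. It was chosen with earlier results of these data known, so its counts are no independent test. Of these 34, all tested, 4 were higher and 0 lower in edgeR, where 1.27% and 0.772% of all genes were, at a median log2 fold change of 0.22 against 0.01 over all genes. At an unadjusted p under 0.05 they were 9 and 1, beside 8.51% and 7.80% of all genes. DESeq2 gave 6 and 0, against 2.80% and 2.21% of all genes, and limma voom 4 and 0, against 2.39% and 1.98%. The mitotic kinase Aurkb rose 3.93-fold (log2 1.97 ± 0.43), Top2a, which untangles DNA, 3.12-fold, the activator of chromosome separation Cdc20 2.46-fold, and the spindle checkpoint gene Bub1b 2.10-fold (edgeR adjusted p = 0.0260, 0.0431, 0.0289 and 0.0293). All 4 lost their calls when single libraries were left out, with adjusted p-values up to 0.0798, 0.0906, 0.102 and 0.102, among them oxaliplatin replicates 3, 4 and 5 for each. Without each of these 3 replicates the 234 genes called higher over all genes became 177, 79 and 80. Limma voom shared 3 of the 4 calls, with Ccnb2 in place of Top2a, which was at an adjusted p of 0.0910 there and of 0.0599 in edgeR with the replicate block. Mki67, the common proliferation marker, also added once its value was known, was at 1.15 ± 0.570 CPM after oxaliplatin and 0.788 ± 0.216 after vehicle (n = 5 each, edgeR adjusted p = 0.410). The summed level of the 34 genes was 78.1 to 110 CPM after oxaliplatin and 77.7 to 90.6 CPM after vehicle. It was highest in oxaliplatin replicate 3, also the highest library for Psrc1 and for Dcxr, while Gtse1 was highest in oxaliplatin replicate 2. The sum is carried by abundant members such as E2f1, a transcription factor of cell cycle entry, at 23.5 ± 2.94 CPM after oxaliplatin and 27.6 ± 2.58 CPM after vehicle (n = 5 each), named after its value was known. The part of dividing cells in the values of Gtse1 and Psrc1 was not tested. In bulk tissue, more cells of a type and more RNA per cell cannot be told apart.

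The 9 genes were also set side by side library by library. The mean log2 ratio to the vehicle mean over the 9 genes was 0.72, 0.73, 0.72, 0.76 and 0.63 in oxaliplatin replicates 1 to 5, and between -0.09 and 0.06 in the vehicle libraries. Oxaliplatin replicate 5 was the lowest of its group. That treated libraries lie above vehicle follows from the choice of genes, 4 of which have groups that do not overlap. The order of the libraries changed from gene to gene: replicate 4 led for Trp53inp1, Zmat3 and Ppm1d, replicate 2 for Trp53, Mdm2 and Gtse1, replicate 3 for Psrc1 and Dcxr, and replicate 1 for Mdm4. In 18 sets of 5 values, 1 for each gene and group, no library stood apart by Dixon's criterion (0.71).

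**Figure D3:**
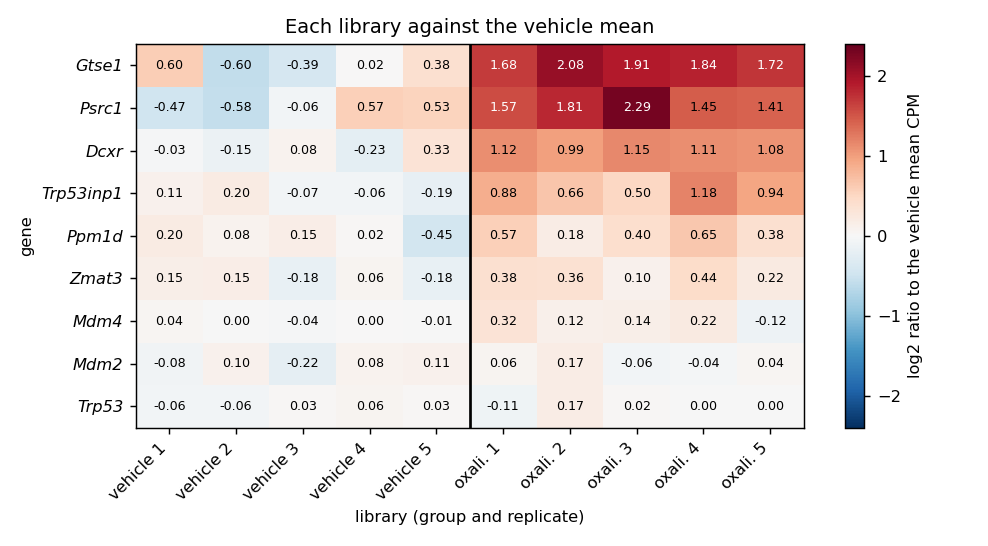
Rows are the 9 genes, ordered by fold change, and columns the 10 libraries; colour and number give the log2 ratio of a library's CPM to the vehicle mean. The upper 4 rows are high in all 5 oxaliplatin libraries, while the Mdm2 and Trp53 rows stay between -0.22 and 0.17.

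Levels were compared between genes per length, as CPM per kilobase of the gene's exons in the GENCODE M21 annotation, which may differ from the one the authors used. After vehicle the order was Trp53 (18.4 ± 0.694), Dcxr (6.88 ± 1.08), Mdm2 (4.80 ± 0.464), Zmat3 (3.40 ± 0.392), Mdm4 (1.85 ± 0.0365), Trp53inp1 (1.01 ± 0.110), Ppm1d (0.487 ± 0.0794), Gtse1 (0.476 ± 0.162) and Psrc1 (0.158 ± 0.0584). Neighbours in that order had separate ranges over the 5 libraries, except Ppm1d and Gtse1. After oxaliplatin Trp53 (18.7 ± 1.34) and Dcxr (14.5 ± 0.606) led again, and Gtse1 (1.64 ± 0.188) stood above Ppm1d (0.655 ± 0.0818) with no overlap. Ranges then overlapped between Mdm2 and Zmat3, between Mdm4 and Trp53inp1, between Trp53inp1 and Gtse1, and between Ppm1d and Psrc1. Psrc1 was the lowest per length in both groups.

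The rest of the pathway was described with 4 further lists, of 90 genes. These lists too were chosen with earlier results of these data known, so their counts are no independent test. Of 86 tested members 9 were higher and 0 lower, beside 1.27% and 0.772% of all genes, at a median log2 fold change of 0.09. At an unadjusted p under 0.05 the numbers were 24 and 7, where 8.51% and 7.80% of all genes lay, so the 7 on the lower side are close to that background. DESeq2 gave 12 and 2, against 2.80% and 2.21% of all genes, and limma voom 14 and 2, against 2.39% and 1.98%. Without oxaliplatin replicate 4 or 5 or vehicle replicate 4 the 9 became 3, and without vehicle replicate 1 they became 5. In these fits the 234 genes called higher over all genes became 79, 80, 82 and 117, in the same order. Targets for growth arrest and stress had 4 of 15 higher and 0 lower in edgeR, at a median of 0.11. They had 5 and 3 at an unadjusted p under 0.05, 4 and 1 in DESeq2 and 5 and 0 in limma voom. The shares of all genes are those given above for each setting. Sesn1, which restrains growth signals, rose 1.56-fold, Ccng1, a cyclin that acts on the Mdm2 loop, 1.51-fold, Cdkn1a, the inhibitor p21 that stops the cell cycle, 1.83-fold, and the spindle gene Ckap2 1.86-fold (edgeR adjusted p = 0.00150, 0.00443, 0.0193 and 0.0193).

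Targets for cell death had 4 of 20 higher and 0 lower in edgeR, beside 1.27% and 0.772% of all genes. Their median was 0.43, the same as over the 9 genes. At an unadjusted p under 0.05 they had 9 and 2, beside 8.51% and 7.80% of all genes. DESeq2 gave 5 and 0, against 2.80% and 2.21% of all genes, and limma voom 6 and 1, against 2.39% and 1.98%. Pidd1, a scaffold of a caspase complex, and Perp, a membrane protein of cell death and adhesion, each rose 1.56-fold, and the nuclease gene Aen 1.33-fold (edgeR adjusted p = 0.0110, 0.0149 and 0.0225). Eda2r, a receptor of the tumour necrosis factor family, rose 3.77-fold from 3 to 11 counts per vehicle library to 28 to 51 (edgeR adjusted p = 0.0203). Sesn1, Ccng1 and Pidd1 passed in all 10 fits that left out 1 library. Cdkn1a, Aen, Eda2r, Ckap2 and Perp lost their calls when oxaliplatin replicate 4, oxaliplatin replicate 5 or vehicle replicate 4 was left out, and the first 3 of them also without vehicle replicate 1 (highest edgeR adjusted p 0.0855). Calls over all genes fell in these fits too, as given above. Over the alternative fits the log2 fold changes were 0.81 to 1.05 for Cdkn1a, 0.37 to 0.52 for Aen and 1.71 to 2.04 for Eda2r. For Ckap2 and Perp they were 0.76 to 0.98 and 0.56 to 0.71.

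Targets for metabolism and repair had 0 of 18 past the threshold in the edgeR test, at a median of 0.05. Over all genes 1.27% were higher and 0.772% lower in that test. At an unadjusted p under 0.05 there were 6 higher and 1 lower, beside 8.51% and 7.80% of all genes. DESeq2 and limma voom each gave 2 and 1. The shares of all genes were 2.80% and 2.21% in DESeq2 and 2.39% and 1.98% in limma voom. The list of p53 regulators holds the damage kinases and ubiquitin ligases other than Mdm2, but not only genes that act upstream of p53. It had 1 of 33 higher and 0 lower, at a median of -0.01. At an unadjusted p under 0.05 there were 4 and 1, and in DESeq2 and in limma voom 1 and 0, beside the same shares of all genes. That gene was Rchy1, a p53-induced ligase that tags p53, at 46.3 ± 4.10 against 37.4 ± 1.31 CPM (n = 5 each), or 1.24-fold. It passed in 3 of 10 fits that left out 1 library (edgeR adjusted p = 0.0386, up to 0.132). Wrap53, which starts beside Trp53 and runs the other way, was added once its value was known and stood at -0.03 ± 0.10 (edgeR adjusted p = 0.931). Whether the counts kept strand is not stated, so antisense reads could not be told apart.

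**Figure D4:**
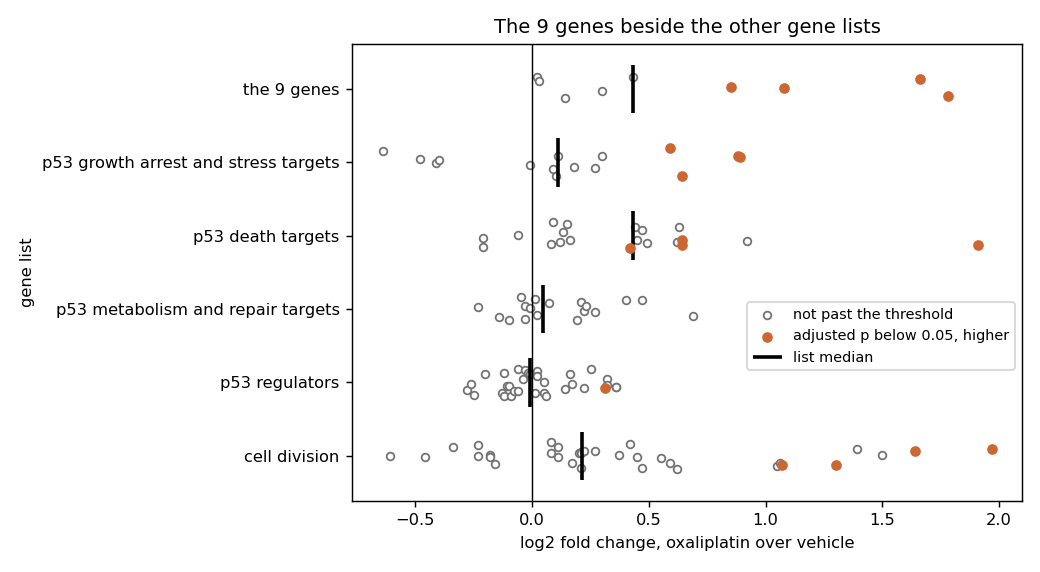
Each point is a tested gene, placed by its log2 fold change of oxaliplatin over vehicle, with 1 row for each list and small random vertical offsets; filled points passed an adjusted p of 0.05 and the black bar is the list median. The 4 called genes among the 9 lie between 0.85 and 1.78, and the regulator row centres on -0.01.

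For the 4 genes whose groups did not overlap, the most similar profiles were sought among 12252 other named genes with a mean of at least 2 CPM. Likeness was the root mean square difference in log2 CPM, each gene centred on its vehicle mean, over the 10 libraries. Dcxr was closest to Plvap (0.20), Cdkn1a (0.21) and Mertk (0.22), where the median gene was at 0.80. Trp53inp1 was closest to Wfdc2 (0.17), Arhgef37 (0.18) and Svep1 (0.18), with a median gene at 0.64. Gtse1 had looser partners in Wfdc17 (0.50), Zbtb16 (0.52) and Acer2 (0.57), and Psrc1 in Fam107a (0.50), Acer2 (0.54) and Cox4i2 (0.54). This measure favours genes with a like fold change, and Cdkn1a is the only 1 of these that is on the p53 lists used here. The limit of 2 CPM left out Aurkb, Top2a, Cdc20 and Eda2r, so likeness to them was not examined. Psrc1 itself lies under that limit, at 1.68 CPM after oxaliplatin and 0.531 CPM after vehicle.

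Facts of the whole series bear on all of these values. Library totals ran from 52963470 to 60984426 counts, and 234 genes were higher and 142 lower (303 and 99 without a composition factor). Sensory neuron markers summed to 18302 to 21193 CPM after oxaliplatin and 20356 to 23324 CPM after vehicle, with 0 of 10 markers absent from any library and 1, Nefh, lower. Skeletal muscle markers (7, with 0 called) summed to 110 to 555 CPM after vehicle, to 9.98 to 26.1 CPM in 4 oxaliplatin libraries and to 759 CPM in oxaliplatin replicate 1. That library also held 712 CPM of 8 adipocyte markers, where the other 9 had 8.74 to 62.3. Spinal cord markers (6, of which Mnx1 and Olig2 were at 0 in a library) summed to 25.2 to 34.5 CPM after oxaliplatin and 20.2 to 22.6 CPM after vehicle. Schwann cell markers reached 8380 to 11319 CPM and 7630 to 10384 CPM, satellite glia 3392 to 4665 and 3867 to 5730, fibroblasts 895 to 1131 and 762 to 988, endothelial cells 101 to 123 and 87.1 to 119, macrophages 52.7 to 74.3 and 49.6 to 91.2, and blood and marrow cells 10.6 to 478 and 113 to 329. Among these markers the edgeR test called Pecam1 and Cdh5 of 7 endothelial, Drp2 of 9 Schwann cell, Pdgfra of 6 fibroblast, Plin4 of 6 tested adipocyte and Glul of 7 satellite glia markers higher, and Fabp7 of satellite glia and Cx3cr1 of 10 macrophage markers lower. Over all tested genes, 1.27% were called higher and 0.772% lower in the edgeR test. The part of these marker differences in the p53 genes was not tested. Without oxaliplatin replicate 1 and vehicle replicate 5, which differs from the full data in more than these markers, the log2 fold changes were 1.91 for Gtse1, 1.83 for Psrc1, 1.16 for Dcxr, 0.80 for Trp53inp1, 0.30 for Ppm1d, 0.24 for Zmat3, 0.09 for Mdm4, 0.05 for Mdm2 and 0.05 for Trp53.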

How the data were processed

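The data are 5 oxaliplatin and 5 vehicle RNA-seq libraries, grouped by their titles. The file deposited by the authors gives unnormalised counts, whole numbers with 1 column per library, for each Ensembl ID. The submitters' processing notes name DESeq2, Partek and STAR 2.5.1a without saying what each did; no source used here names the genome build, the annotation, the strand setting or how reads were counted. Extra rows (276) that repeated an ID with identical counts were dropped.

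Genes kept by filterByExpr were tested with edgeR 4.0.16 (R 4.3.3): TMM factors, robust quasi-likelihood fit without covariates, Benjamini-Hochberg adjustment over 18401 genes, threshold 0.05. SE is the log2 fold change over the root of F, and the 95% intervals use its degrees of freedom. CPM use TMM-scaled totals; profiles used log2 CPM with a prior count of 2. Pairs of libraries in a group differed by more than counting noise (reduced chi-square 12.9 to 54.6), and each counted once. That check cannot show that the libraries came from separate animals.

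The 9 genes, the gene lists and the alternatives were chosen with earlier results of these data known. Named were the 9 genes, up to 6 called genes with the smallest p per list, the 3 nearest profiles of genes without overlap, and neighbours in the gene order; other exceptions are marked. Alternatives were RLE or no composition factors, no filter or 1 CPM in 5 libraries, DESeq2 1.42.0, limma 3.58.1 voom with quality weights, the replicate block, a threshold of 0.1, and libraries left out. Promoters are from RefSeq (GRCm38.p6).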

Additional observations from a re-analysis of the deposited data

How the results depend on the processing

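The count of 4 higher and 0 lower among the 9 genes was 4 to 5 higher and 0 lower under all alternatives and left-out libraries; the fifth was Zmat3. Among the 86 other pathway genes, 9 higher and 0 lower became 14 and 2 in limma voom, 12 and 2 in DESeq2, 12 and 3 with the replicate block and 13 and 1 at a threshold of 0.1. When 1 library was left out they ranged from 3 to 11 and from 0 to 2. Over all genes, 234 higher and 142 lower became 516 and 406 in DESeq2, 439 and 365 in limma voom, 382 and 278 with the replicate block, 424 and 304 at a threshold of 0.1, and 142 and 76 without oxaliplatin 1 and vehicle 5 together. With 1 library left out they ranged from 79 to 343 and from 34 to 251. The share of calls on the higher side was 62.2%, and 75.4% without a composition factor. The cause of these changes was not tested, other than that left-out libraries and the threshold change the number of samples or calls by construction. With 1 library left out, the log2 fold change of Trp53 ran from -0.02 (without oxaliplatin replicate 2) to 0.05, and that of Mdm2 from -0.01 (without oxaliplatin replicate 2 or vehicle replicate 3) to 0.06. Whether same-numbered libraries pair was not settled. Their deviations from the group means correlated at 0.092, -0.038, 0.212, -0.018 and 0.145 for replicates 1 to 5. Oxaliplatin replicates 1, 3 and 5 correlated best with the vehicle library of the same number, and replicates 2 and 4 with another. Under the replicate block 4 became 5 among the 9 genes. Aurkb, Cdc20, Top2a and Eda2r had no value under the stricter filter. Depth limits Psrc1, Ppm1d and Eda2r, whose counting error is a large part of their spread or whose vehicle counts are few.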
